A study of Rattus norvegicus with 93 samples.

Results

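The mammalian circadian clock was followed through the healing of bone defects in the rat skull with 10 of its genes: the activators Arntl (also called Bmal1) and Clock, the repressors Per1, Per2, Per3 and Cry2, the nuclear receptors Nr1d1 and Nr1d2, and the output factors Dbp and Tef. The genes were chosen by their symbols, which were looked up in the array platform's annotation, and all 10 were measured, among 15974 genes in all. Arntl was the member that changed most steadily. It stood lowest on day 1 after surgery and was higher on every later day in both defect sizes.

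RNA came from calvarial bone with the plug of healing tissue of 12-week male rats whose skulls had been drilled with a trephine, with no further treatment. Each of 93 arrays (1-colour Agilent whole-genome oligonucleotide arrays) held the tissue of 1 rat. Defects of 8 mm were sampled on days 1, 3, 5, 7, 10, 14 and 21 in 5, 11, 12, 5, 6, 6 and 6 rats, and defects of 4 mm on the same days in 3, 8, 11, 5, 4, 5 and 6 rats. No uninjured bone was analysed here, so day 1 is the earliest state and not a baseline. The sources used here give neither the rats' strain nor the hour at which tissue was taken.

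The clock is a loop of transcription. ARNTL pairs with CLOCK, or with its relative NPAS2, and switches on genes that carry E-boxes, among them the Per and Cry genes, Nr1d1, Nr1d2, Dbp and Tef. PER and CRY proteins then shut the pair down, and NR1D1 and NR1D2 (the REV-ERBs) repress Arntl through ROR response elements, which RORA activates. DBP and TEF activate genes through D-boxes, which NFIL3 represses, and bone cells run such a clock of their own. Because these transcripts swing over the day, a group's level depends on the hour of sampling as well as on its state, and with no hour given the part of the hour in any difference below cannot be told apart from that of the day or defect size.

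The elements of this loop were looked for in the members' promoters, since they are the stretches through which the members act on each other. RefSeq (rat build GRCr8) gave 12 promoters for the 10 genes, and 250 bases before each start site were read on the gene's strand. Of these start sites 8 lie inside the annotated gene, downstream of the first base of another transcript. The elements searched on both strands were the E-box CACGTG, its variant CACGTT (read as AACGTG on the other strand), the D-box TTANNTAA, the core TAGGTCA of the ROR response element and the cyclic AMP response element TGACGTCA. Each match is shown with its surroundings, 30 bases on the gene's strand, with the element in capitals.
Arntl, ROR response element core, chr1:176766298-176766327 (+): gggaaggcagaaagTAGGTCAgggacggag
Per2, E-box variant, chr9:99497038-99497067 (-): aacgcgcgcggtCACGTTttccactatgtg
Per2, D-box, chr9:99497167-99497196 (-): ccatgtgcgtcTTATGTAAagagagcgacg
Nr1d1, E-box, chr10:84229628-84229657 (-): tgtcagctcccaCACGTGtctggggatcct
Nr1d1, E-box variant, chr10:84231969-84231998 (-): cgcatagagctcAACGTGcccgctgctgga
Tef, E-box, chr7:115206617-115206646 (+): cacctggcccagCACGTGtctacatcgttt
Cry2, E-box variant, chr3:98860632-98860661 (-): acacatggtgggAACGTGagggggcggggc
The Arntl element lay 16 bases before the start site, that of Per2 lay 62 bases (E-box variant) and 192 bases (D-box) before it, and that of Tef lay 198 bases before it. Nr1d1 has 2 start sites in the table, with an E-box 191 bases before one and the variant 174 bases before the other. The cyclic AMP response element matched in none of the 12 promoters. In 250 bases before a start site the E-box was found in 5.79% of 27457 rat promoters, the variant in 4.14%, the D-box in 5.33% and the ROR response element core in 2.26%. A match describes these letters and is not a measured binding site, and no match says nothing about other stretches of the gene.

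The deposited values are linear ratios, each probe set against its own typical level (the median over the 93 arrays is 1 for 87.8% of probes), and log2 of that ratio is called the log2 value below. A log2 value therefore compares arrays for 1 gene and cannot compare genes with each other. The lowest deposited ratio was 0.01 (a log2 value of -6.64), a floor that held 13.4% of values. That share was not equal between days. Its group median per array was 10.3%, 10.3%, 10.1%, 10.2%, 18.5%, 16.3% and 21.2% in 8 mm defects on days 1, 3, 5, 7, 10, 14 and 21. In 4 mm defects it was 10.2%, 10.3%, 10.4%, 13.4%, 18.6%, 19.6% and 15.7%. A fall on days 10 to 21 that rests on values at the floor cannot be told apart from this rise. Arntl, Per2 and Dbp were never at the floor, Per1 and Nr1d1 were there on 1 array each, Cry2 on 4, Tef on 5, Clock on 11 and Nr1d2 on 23. The used probe of Per3 was at the floor on 51 of 93 arrays, and its 2 other probes were there on 9 arrays each.

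Arrays also differed in their general level, taken as the median log2 value of the 5413 genes that were never at the floor. It lay below -0.7 on 7 arrays, of which 2 were day 1 arrays (8 mm rat 11 and 4 mm rat 13), 2 were 8 mm day 3 arrays and 3 were day 10 arrays. The tissue held other cell types in changing amounts. All 12 skeletal muscle markers were lower on every later day than on day 1, with a median log2 difference of -6.37 on day 21. The mean log2 value of these markers ranged between -2.61 and -1.53 (8 mm) and between -2.82 and -1.28 (4 mm) on day 21, and between -1.08 and 5.04 (8 mm) and between 0.90 and 6.77 (4 mm) on day 1. All 8 neutrophil markers were lower on every later day as well, and 8 arrays had a brain marker score above 2. In such bulk tissue fewer cells of a type and less RNA per cell cannot be told apart.

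Arntl encodes the activator without which the loop does not run. On day 1 its log2 values were -2.53, -0.78, -0.91, -1.20 and -1.00 in 8 mm defects and -2.40, -1.50 and -1.25 in 4 mm defects. On day 7 they were -0.16, 0.32, 0.11, 0.16 and 0.31 in 8 mm defects and 0.57, 1.25, 0.46, 0.51 and 0.65 in 4 mm defects. Every day 7 array stood above every day 1 array. In 8 mm defects the lowest, median and highest values were 0.18, 0.64 and 1.30 on day 14 and -0.15, 0.25 and 0.92 on day 21. In 4 mm defects they were 0.67, 1.56, -0.45, 0.56 and 0.83 on day 14, and 0.10, 0.65 and 1.05 (lowest, median and highest) on day 21. The arrays of days 14 and 21 did not overlap those of day 1 either.

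Averaged over both sizes, the Arntl log2 value was -1.50 on day 1, -0.69 on day 3, -0.02 on day 5, 0.42 on day 7, 0.22 on day 10, 0.67 on day 14 and 0.44 on day 21. The log2 difference from day 1 was 0.81 ± 0.26 on day 3 (SE; limma, adjusted p = 0.0426) and 1.48 ± 0.25 on day 5 (adjusted p = 3.18e-06). It was 1.92 ± 0.29 on day 7, 1.72 ± 0.29 on day 10, 2.17 ± 0.29 on day 14 and 1.94 ± 0.28 on day 21, with limma's adjusted p between 4.14e-09 and 4.55e-06. Arntl was above the day 1 mean on 18 of 19 day 3 arrays, on 23 of 23 day 5 arrays and on all 43 arrays of days 7, 10, 14 and 21. Within either size the groups of day 7 and later differed by about as much as their own spread. In 8 mm defects the means were 0.15 ± 0.20, 0.17 ± 1.08, 0.70 ± 0.40 and 0.28 ± 0.36 (SD, n = 5, 6, 6 and 6) on days 7, 10, 14 and 21, and in 4 mm defects 0.69 ± 0.32, 0.27 ± 0.64, 0.63 ± 0.72 and 0.60 ± 0.38 (SD, n = 5, 4, 5 and 6).

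The arrays' general level was also higher on later days than on day 1, when it averaged -0.43 (8 mm) and -0.51 (4 mm). It averaged -0.11 (8 mm) and 0.44 (4 mm) on day 7, and -0.26 (8 mm) and -0.10 (4 mm) on day 21. Centring each array on that level was chosen after seeing the data. With it, the Arntl log2 difference from day 1 was 0.88 on day 5, 1.28 on day 7 and 1.65 on day 21 (limma, adjusted p = 5.42e-15 on day 21). With the muscle and brain marker scores as covariates, on the deposited scale, the Arntl difference was 2.17 on day 21 (adjusted p = 6.24e-07). The day 3 difference was the smallest, and its call was lost in several settings. Without the 7 arrays of low level the day 3 difference was 0.62 (adjusted p = 0.0951), and it missed the threshold as well when any 1 of 8 mm day 1 rats 11 and 14 or 4 mm day 1 rats 13 and 17 was left out, with 0.64 without 4 mm rat 13.

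**Figure D1:**
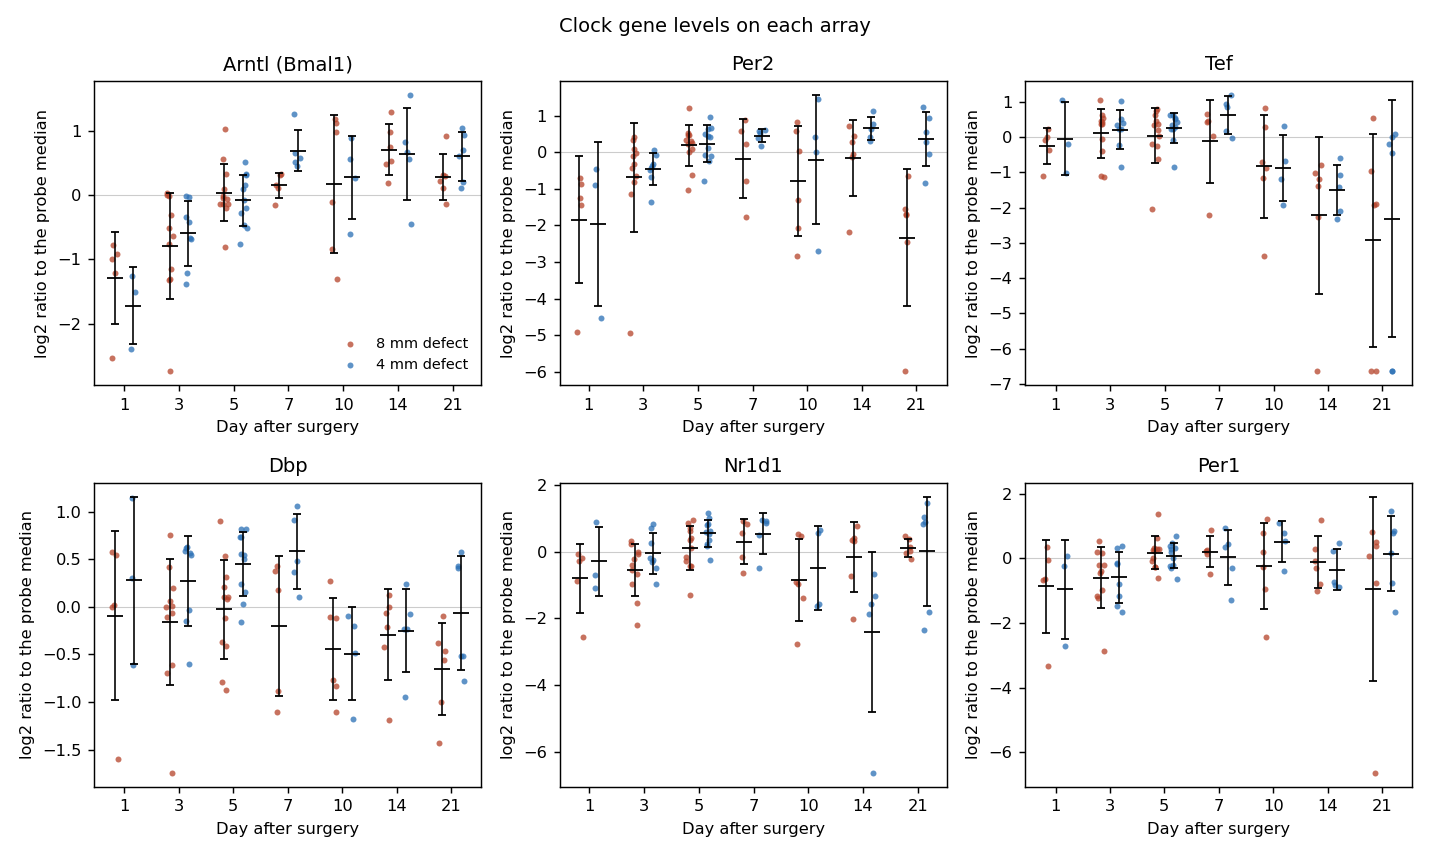
Log2 values (ratio to the probe's own typical level) of Arntl, Per2, Tef, Dbp, Nr1d1 and Per1 against day after surgery, 1 point per array, with 8 mm defects left and 4 mm defects right of each day and bars for the mean ± SD. Arntl stands lowest on day 1 in both sizes, Per2 is low in 8 mm defects on day 21, and single Tef and Nr1d1 arrays lie at the floor of -6.64.

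Clock encodes the partner of ARNTL. Its log2 values on day 7 were -0.98, -6.64, -4.32, -1.31 and -4.09 in 8 mm defects and -2.00, -1.74, 0.54, -0.97 and -6.64 in 4 mm defects. On day 1 they were 1.95, 0.15, -1.45, 0.91 and -1.02 in 8 mm defects and 0.44, 1.18 and -1.05 in 4 mm defects. Of the 10 day 7 arrays 9 lay below the day 1 mean, and 2 were at the floor. The log2 difference was -2.97 ± 1.18 (SE; limma, adjusted p = 0.0617), which missed the threshold of 0.05. It passed with each array centred on its median (-3.26, adjusted p = 0.0413) or on its general level (-3.60, adjusted p = 0.0225), with ratios under 0.25 raised to 0.25 (-1.59, adjusted p = 0.0384), and with only the 4 groups compared in the fit (adjusted p = 0.0415). On no other day did Clock pass. Its change over days could not be set beside that of Arntl with any precision, since the SE of its differences from day 1 was between 1.03 and 1.19, against 0.25 to 0.29 for Arntl.

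Per2 encodes a repressor of the ARNTL and CLOCK pair. On day 5 the lowest, median and highest log2 values were -1.04, 0.28 and 1.20 in 8 mm defects and -0.77, 0.41 and 0.97 in 4 mm defects. On day 1 the values were -1.44, -0.88, -0.71, -1.26 and -4.91 in 8 mm defects and -4.53, -0.45 and -0.89 in 4 mm defects. All 23 day 5 arrays lay above the day 1 mean, and the upper day 1 arrays overlapped the lower day 5 arrays. The log2 difference from day 1 was 2.11 ± 0.48 on day 5 (SE; limma, adjusted p = 0.00051), 2.04 ± 0.55 on day 7 (adjusted p = 0.00396) and 2.14 ± 0.54 on day 14 (adjusted p = 0.002). It was 1.32 ± 0.49 on day 3, 1.40 ± 0.56 on day 10 and 0.91 ± 0.53 on day 21, with adjusted p of 0.105, 0.07 and 0.207. The 2 lowest day 1 arrays carried part of this. Without 4 mm day 1 rat 13 the difference was 1.39 on day 7 (adjusted p = 0.091) and 1.50 on day 14 (adjusted p = 0.057).

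Per1, a repressor that also responds quickly to glucocorticoids, had day 5 log2 values between -0.62 and 1.37 in 8 mm defects and between -0.63 and 0.71 in 4 mm defects. Its day 1 values were -3.32, 0.35, -0.66, -0.64 and -0.06 in 8 mm defects and -2.71, -0.22 and 0.07 in 4 mm defects. Both low day 1 values were those of the arrays with a low general level. The log2 difference between day 5 and day 1 was 1.04 ± 0.47 (SE; limma, adjusted p = 0.111), and no day passed the threshold. Cry2, the cryptochrome among the members, likewise passed on no day, with differences from day 1 between -1.05 and 0.83. Its lowest group mean, -1.92 ± 3.19 (SD, n = 4) in 4 mm defects on day 10, held 1 array at the floor.

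Per3, the third Per gene, had no single course, since its 3 probes disagreed, with Pearson r between -0.10 and 0.15 over the 93 arrays, and the probe with the widest spread was at the floor on 3 of 6 arrays (8 mm) and 5 of 6 arrays (4 mm) on day 21. On day 1 it was at the floor on 4 of 5 arrays of 8 mm tissue and on none of 3 arrays of 4 mm tissue. The 2 other probes averaged -3.07 ± 4.19 and -2.07 ± 3.65 in 8 mm defects on day 21 (SD, n = 6), against -1.02 ± 2.74 and -0.50 ± 0.65 on day 1 (SD, n = 5). In 4 mm defects they averaged -0.68 ± 1.67 and -0.65 ± 3.23 on day 21 (SD, n = 6), against -0.21 ± 1.45 and 0.05 ± 0.27 on day 1 (SD, n = 3). No comparison passed the threshold for Per3 on the used probe or on the mean of the 3 probes.

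Nr1d1 and Nr1d2 encode the receptors that repress Arntl. Nr1d1 averaged -0.80, -0.55, 0.12, 0.30, -0.84, -0.15 and 0.12 in 8 mm defects over days 1, 3, 5, 7, 10, 14 and 21. In 4 mm defects the means were -0.29, -0.05, 0.55, 0.54, -0.49, -2.41 and 0.01. The dip on day 14 in 4 mm defects stands out in this course. In 4 mm defects Nr1d1 differed between days (limma F test, adjusted p = 0.000683), and in 8 mm defects it did not pass (adjusted p = 0.312). The interaction of size and day had an adjusted p of 0.269 (unadjusted p = 0.016), so a different course in the 2 sizes was not shown.

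Nr1d2 was often at the floor on day 1, where its log2 values were -6.64, -6.64, -6.64, 0.64 and -6.64 in 8 mm defects and 0.60, -0.86 and -6.64 in 4 mm defects. It was at the floor on 5 of 8 day 1 arrays, on 2 of 23 day 5 arrays and on 2 of 12 day 21 arrays. On day 21 its 8 mm values lay between 0.09 and 1.57, above 4 of the 5 day 1 arrays of that size, while the 4 mm values overlapped those of day 1. The log2 difference from day 1 was 3.26 ± 1.26 on day 5 (SE; limma, adjusted p = 0.0582) and 3.39 ± 1.40 on day 21 (adjusted p = 0.0621), and its size depends on where the floor lies. The F test over days in 8 mm defects gave an adjusted p of 0.0434, which was kept in 1 of 10 alternative settings.

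Tef encodes an activator of D-box genes. On day 21 its log2 values were -1.91, -0.97, 0.55, -6.64, -1.92 and -6.64 in 8 mm defects and -0.45, 0.00, -6.64, -0.21, -6.64 and 0.08 in 4 mm defects. On day 1 they were -1.09, -0.09, -0.37, 0.22 and 0.00 in 8 mm defects and -0.19, 1.06 and -1.01 in 4 mm defects. The groups overlapped, 4 of the 12 day 21 arrays were at the floor, and 9 of 12 were below the day 1 mean. The log2 difference was -2.46 ± 0.67 (SE; limma, adjusted p = 0.0038). Since it rests on values at the floor, its size depends on where the floor lies, and with ratios under 0.25 raised to 0.25 it was -0.91 (adjusted p = 0.0428). With only the 4 groups compared in the fit, the adjusted p was 0.151.

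On day 14 the lowest, median and highest Tef values in 8 mm defects were -6.64, -1.29 and -0.79, and the values in 4 mm defects were -1.08, -2.33, -2.10, -1.42 and -0.60. All 11 lay below the day 1 mean. The log2 difference from day 1 was -1.70 ± 0.69 (SE; limma, adjusted p = 0.0658), and it passed with each array centred on its median (-1.86, adjusted p = 0.0401). Tef also differed between days within 8 mm defects (F test, adjusted p = 0.00199) and within 4 mm defects (adjusted p = 0.021). The 4 mm call was lost without day 21 rat 12 or rat 14, the 2 arrays at the floor there (adjusted p = 0.106 each).

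Dbp encodes the other D-box activator among the members and is among the most strongly cycling transcripts of many tissues. On the deposited scale it moved little. On day 21 the lowest, median and highest log2 values were -1.43, -0.51 and -0.09 in 8 mm defects and -0.78, -0.05 and 0.57 in 4 mm defects. On day 1 the values were -1.60, 0.58, 0.54, 0.02 and 0.00 in 8 mm defects and -0.61, 1.14 and 0.31 in 4 mm defects. Over both sizes, every day 21 value lay within the range of day 1. The log2 difference from day 1 was -0.56 ± 0.28 on day 10, -0.37 ± 0.27 on day 14 and -0.46 ± 0.27 on day 21 (SE), with limma's adjusted p between 0.166 and 0.367.

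Unlike Arntl, Dbp depended on the scaling of the arrays. On day 10 its log2 difference from day 1 was -0.71 with each array centred on its median (limma, adjusted p = 0.0171). With quantile normalization it was -0.74 (adjusted p = 0.0321). On days 14 and 21 it passed with neither (adjusted p between 0.0733 and 0.138). The 2 lowest Dbp arrays of day 1, 8 mm rat 11 and 4 mm rat 13, were those of low general level. With each array centred on its general level, the log2 difference from day 1 was -0.95 on day 10 (limma, adjusted p = 0.000343), -0.83 on day 14 (adjusted p = 0.00111) and -0.75 on day 21 (adjusted p = 0.00245). The median log2 difference of all genes under that centring was -0.45, -0.53 and -0.47 on these days, against -0.06, -0.06 and -0.18 on the deposited scale. Without the arrays of low level Dbp fell by 0.78 on day 14 (adjusted p = 0.023) and by 0.87 on day 21 (adjusted p = 0.00671) relative to day 1. Arntl kept its sign and its call on days 5 to 21 under each of these.

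**Figure D2:**
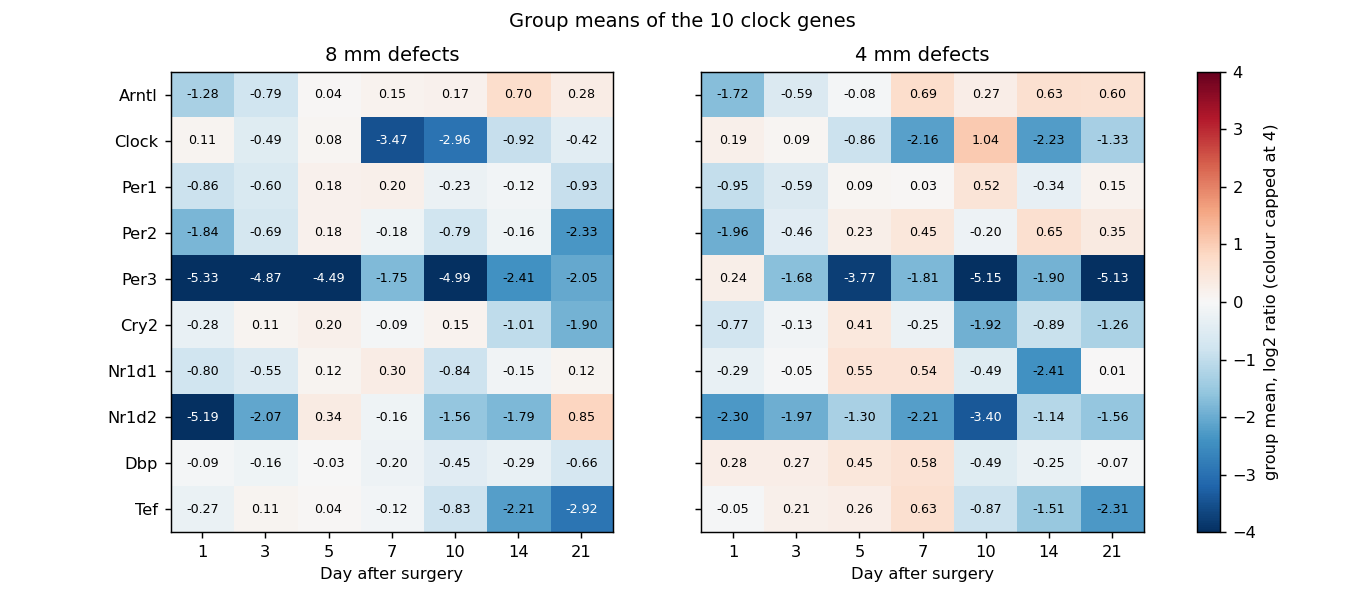
Group means of the log2 value of the 10 clock genes by day after surgery, 8 mm defects left and 4 mm defects right, on 1 colour scale. Arntl and Per2 have their lowest or next to lowest means on day 1, Tef is low on days 14 and 21, and the strongly negative cells of Per3, Nr1d2 and Clock are groups with arrays at the floor.

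Counted over the members, 1 of 10 rose on day 3 (Arntl), when 6.44% of all genes were called and 5.97% were called higher. On days 5, 7 and 14, 2 of 10 rose (Arntl and Per2), when 19%, 21.4% and 21% of all genes were called and 17.3%, 16.6% and 12.6% were called higher. On day 10, 1 rose (Arntl), when 16.6% were called and 10.4% were called higher. On day 21, 1 rose (Arntl) and 1 fell (Tef), when 26.2% were called, 13.4% higher and 12.8% lower. The members were thus called about as often as genes in general. The median log2 difference of the 10 was 0.31 on day 3, 0.86 on day 5 and 0.87 on day 7, against 0.20, 0.34 and 0.25 over all genes. It was -0.24 on day 10, 0.01 on day 14 and 0.03 on day 21, against -0.06, -0.06 and -0.18. In the F test over days, 4 of 10 members passed within 8 mm defects (Arntl, Per2, Tef and Nr1d2) against 40.2% of all genes, and 3 of 10 within 4 mm defects (Arntl, Nr1d1 and Tef) against 33.5%. The comparisons with day 1 share its 8 arrays, so they are not independent of each other. The groups did not overlap for 1 of the 10 members, Arntl, on each of days 7, 14 and 21, against 4.13%, 2.35% and 2.7% of all genes.

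**Figure D3:**
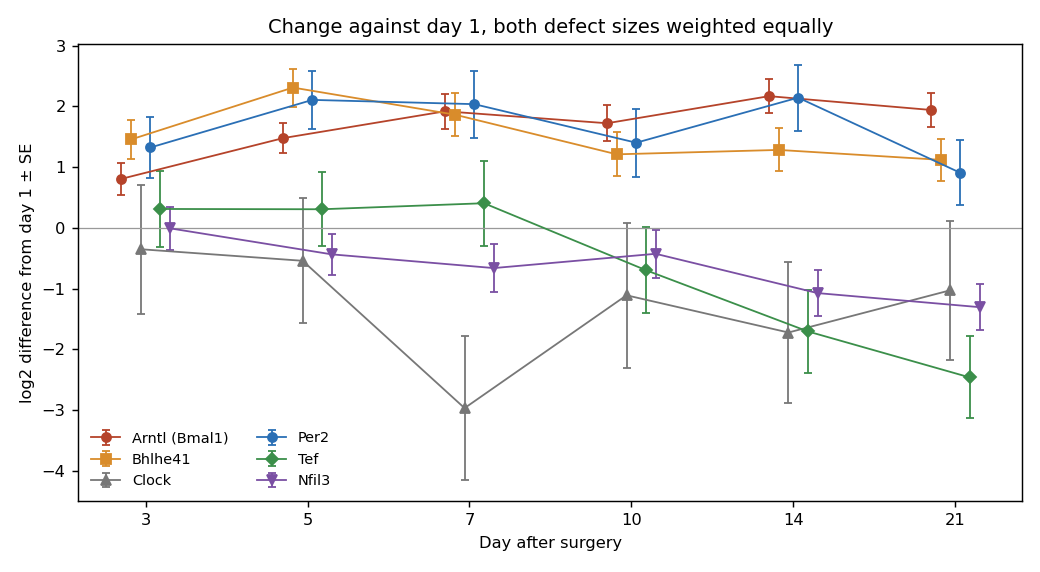
Log2 difference from day 1 ± SE, both sizes weighted equally, of Arntl, Per2, Clock and Tef and of the related genes Bhlhe41 and Nfil3 on days 3 to 21 after surgery. Arntl and Bhlhe41 lie above 0 on every day, and Tef and Nfil3 lie lowest on day 21.

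The comparison of 8 mm with 4 mm defects asks whether the clock genes differed with the size of the wound. Few did. No member was called on days 1, 3, 5, 7 and 10, when 0%, 0%, 0%, 0.369% and 0.263% of all genes were called by limma. At an unadjusted p under 0.05 the counts were 1, 0, 0, 1 and 2 of 10, against 2.64%, 3.04%, 2.97%, 15.2% and 8.79% of all genes. Averaged over the days no member was called either, against 0.413% of all genes, and 2 had an unadjusted p under 0.05, against 13.2% of all genes. Those 2 were Per2, at -0.70 ± 0.25 (SE; adjusted p = 0.218), and Dbp, at -0.38 ± 0.13 (adjusted p = 0.187), with 37 of 51 8 mm arrays below the 4 mm mean for Dbp. On day 7 the Arntl values did not overlap, with every 8 mm array below every 4 mm array, as for 1 of 10 members and 8.39% of all genes. The log2 difference of -0.54 ± 0.38 had an adjusted p of 0.494, and the median of all genes differed by -0.40 there.

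Per2 on day 21 was the member called on that day, against 2.4% of all genes. Its log2 values were -1.56, -2.44, -1.69, -0.64, -1.71 and -5.98 in 8 mm defects, against 0.54, 1.24, -0.84, -0.05, 0.28 and 0.94 in 4 mm defects. All 6 8 mm arrays lay below the 4 mm mean, and the highest 8 mm array reached the range of the lowest 4 mm array. The log2 difference was -2.69 ± 0.66 (SE; 95% interval -4.00 to -1.38; limma, adjusted p = 0.0139). Without 8 mm rat 15 it was -1.96 (adjusted p = 0.0912), and with quantile normalization it was -1.35 (adjusted p = 0.543). With only the groups compared in the fit, limma's adjusted p was 0.372.

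Brain tissue moved with this comparison. On day 21 all 10 brain markers were lower in 8 mm than in 4 mm tissue, with a median log2 difference of -3.00, and the brain score lay between -3.13 and -0.93 in 8 mm tissue and between -1.96 and 4.88 in 4 mm tissue. None of the 10 markers was at the floor on every array of a group. Without the arrays of high brain score, which were 3 of the 6 4 mm arrays on that day, the Per2 difference was -2.13 (adjusted p = 0.233), and with the muscle and brain scores as covariates it was -2.43 (adjusted p = 0.0611). The call was thus lost in both settings, with 3 arrays left in the 4 mm group in the first. Brain content and defect size went together on that day, so their parts in the Per2 difference cannot be told apart.

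Nr1d1 on day 14 was the member called on that day, against 1.63% of all genes. Its log2 values were 0.78, 0.36, -0.74, 0.32, 0.39 and -2.03 in 8 mm defects, against -1.86, -1.33, -6.64, -1.57 and -0.66 in 4 mm defects. All 6 8 mm arrays lay above the 4 mm mean, and the lowest 8 mm array fell within the range of the 4 mm arrays. The log2 difference was 2.26 ± 0.61 (SE; limma, adjusted p = 0.0338). It rested in part on 4 mm rat 17, which was at the floor and had a brain score of 2.86. The 8 mm array of rat 11 had a brain score of 3.21 and an Nr1d1 value of 0.36. Of the 10 brain markers 4 were higher and 6 lower in 8 mm than in 4 mm tissue on day 14. Without 4 mm rat 17 the difference was 1.20 (adjusted p = 0.46), and without any 1 of 8 mm rats 10, 11, 13 and 14 the adjusted p lay between 0.065 and 0.0882. The call was also lost with quantile normalization (1.66, adjusted p = 0.323) and kept with each array centred on its median (2.18, adjusted p = 0.0192). With only the groups compared in the fit, limma's adjusted p was 0.788. The interaction of size and day was called for none of the 10 members, against 0.538% of all genes, and 1 member (Nr1d1) had an unadjusted p under 0.05, against 12.2% of all genes.

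Beyond the members, 12 of 17 other clock genes were measured. On day 21, 2 of the 12 were higher than on day 1 and 6 were lower, against 13.4% and 12.8% of all genes. On day 14, 2 were higher and 3 lower, against 12.6% and 8.41% of all genes. Their median log2 difference was -1.27 on day 21, against -0.18 over all genes. The day 21 counts and the median include Npas2, Csnk1e and Arntl2, whose probes disagreed and which are given as probes below. Bhlhe41, which encodes a repressor that competes for E-boxes (DEC2), was higher than on day 1 on every later day, as Arntl was. It averaged -1.52 ± 0.94 (8 mm, n = 5) and -1.62 ± 0.98 (4 mm, n = 3) on day 1, 0.79 ± 0.49 (n = 12) and 0.69 ± 0.66 (n = 11) on day 5, and -0.59 ± 0.39 and -0.31 ± 0.55 (SD, n = 6 each) on day 21. The log2 difference from day 1 was 2.31 ± 0.31 on day 5 (SE; limma, adjusted p = 7.65e-09), above the day 1 mean on 23 of 23 arrays, and 1.12 ± 0.35 on day 21 (adjusted p = 0.0107). Without the arrays of low level the day 21 difference was 0.70 (adjusted p = 0.0826), and without those of high brain score 0.92 (adjusted p = 0.0668).

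Nfil3, the repressor at D-boxes, was lower by the end of the series. Its mean was -0.88 ± 0.61 (8 mm) and -1.01 ± 0.67 (4 mm) on day 21 (SD, n = 6 each), against 0.68 ± 0.83 (n = 5) and 0.03 ± 0.63 (n = 3) on day 1. The log2 difference was -1.30 ± 0.38 (SE; limma, adjusted p = 0.0061), with 12 of 12 arrays below the day 1 mean, and -0.98 with the muscle and brain scores as covariates (adjusted p = 0.116). Thus Tef and Nfil3, which act on the same element in opposite ways, were both lower on day 21 than on day 1. Rora, an activator of Arntl, was lower on day 21, with a log2 difference of -2.51 ± 0.92 (adjusted p = 0.0338), a call kept in 7 of 11 alternative settings and at the floor on 8 of the 93 arrays. Bhlhe40 and Timeless were lower too, with log2 differences of -1.23 ± 0.43 and -1.01 ± 0.39, and both calls were lost with the muscle and brain covariates (adjusted p = 0.119 and 0.224).

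For 3 further called clock genes the probes disagreed, so they are given as probes and not as genes. The used probe of Npas2, the relative of Clock, was higher on day 21 by 2.71 ± 0.37 (SE; limma, adjusted p = 1.14e-08), while its other probe differed by 0.41 and had an r of -0.04 with it. The used probe of Csnk1e, the kinase of PER proteins, was lower, at a log2 difference of -1.74 ± 0.28 (adjusted p = 7.67e-07), while its other probe differed by 0.49. The used probe of Arntl2, the relative of Arntl, was lower, at a log2 difference of -3.65 ± 0.82 (adjusted p = 0.000353), while its other probe differed by -0.33. Cry1, the other cryptochrome, passed on no day, with differences from day 1 between -0.44 and 0.75.

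Of 7 genes driven by the clock in other tissues 6 were measured, and Por was the one that passed the threshold against day 1 on any day. In the F test over days, 2 of 6 passed within 8 mm defects (Por and Usp2), against 40.2% of all genes, and 3 of 6 within 4 mm defects (Por, Tspan4 and Avp), against 33.5%. Usp2, a ubiquitin protease, had an adjusted p of 0.000157 within 8 mm defects, with its lowest 8 mm mean, -4.02 ± 2.89 (SD, n = 6), on day 10, when 3 of 6 arrays were at the floor. Tspan4, a tetraspanin, and Avp, the vasopressin gene, had adjusted p of 0.00394 and 0.0418 within 4 mm defects, and the used probe of Avp was at the floor on 20 of 93 arrays and had an r of 0.26 with its other probe. Por, the reductase that feeds electrons to cytochromes P450, averaged -0.62 ± 0.33 (8 mm) and -0.51 ± 0.34 (4 mm) on day 21 (SD, n = 6 each), against 0.59 ± 0.98 (n = 5) and 0.39 ± 0.54 (n = 3) on day 1. The log2 difference was -1.35 ± 0.31 on day 14 (SE; limma, adjusted p = 0.000558) and -1.06 ± 0.30 on day 21 (adjusted p = 0.0054), with 11 of 11 and 12 of 12 arrays below the day 1 mean. With the muscle and brain covariates the day 21 value was -0.85 (adjusted p = 0.0874).

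Glucocorticoids reset clocks outside the brain, and 13 of 13 genes known to be raised by them were measured. They did not move one way. On day 21, 3 were higher than on day 1 and 4 lower, against 13.4% and 12.8% of all genes, and their median log2 difference was -0.91, against -0.18 over all genes. Sult1a1, a sulfotransferase, was higher by 5.69 ± 0.38 (SE; limma, adjusted p = 2.41e-21), Sgk1, a kinase, by 1.22 ± 0.34 (adjusted p = 0.0044), and Tsc22d3 (GILZ), by 1.51 ± 0.53 (adjusted p = 0.0277). The Tsc22d3 call was lost without the arrays of low level (1.15, adjusted p = 0.113). Cebpd, a transcription factor, was lower, at a log2 difference of -1.22 ± 0.37 (adjusted p = 0.00977), and -0.64 with the muscle and brain covariates (adjusted p = 0.309). Mt2A, a metallothionein, was lower, at a log2 difference of -4.70 ± 0.38 (adjusted p = 1.97e-17), and Lcn2, which neutrophils store, was lower, at a log2 difference of -4.07 ± 0.67 (adjusted p = 1.48e-06) while all 8 neutrophil markers were lower too. Fkbp5 was called lower on its used probe (-2.08), while its other probes differed by 0.77 and -0.04. On day 14 Lcn2 was higher in 8 mm than in 4 mm defects by 4.31 ± 0.87 (limma, adjusted p = 0.00176), while 3 of 8 neutrophil markers were higher and 5 lower. Klf9 was higher by 2.31 ± 0.63 (adjusted p = 0.0359), a call kept in 5 of 11 alternative settings.

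To see which members varied together from rat to rat, the deviations of each array from its group mean were correlated over the 93 arrays for the 45 pairs of members. On the deposited scale 9 pairs passed (permutation test of Pearson's r within groups, Benjamini-Hochberg adjusted over 45), all with positive r. The strongest was Per2 with Dbp, at r = 0.61 and rho = 0.69 (permutation p = 1e-05 for both, the smallest that the permutations can give, adjusted p = 0.00015), and r = 0.62 without the 2 arrays farthest from the Per2 median. Within the 8 groups of at least 6 arrays this r was positive in 8 of 8, with a median of 0.81 and a range of 0.08 to 0.97. Per2 with Arntl had r = 0.58 and rho = 0.56 (adjusted p = 0.00015; 0.53 without 2 arrays), and Arntl with Dbp had r = 0.56 and rho = 0.48 (0.50 without 2 arrays). Arntl with Clock had r = -0.23 (adjusted p = 0.246).

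**Figure D4:**
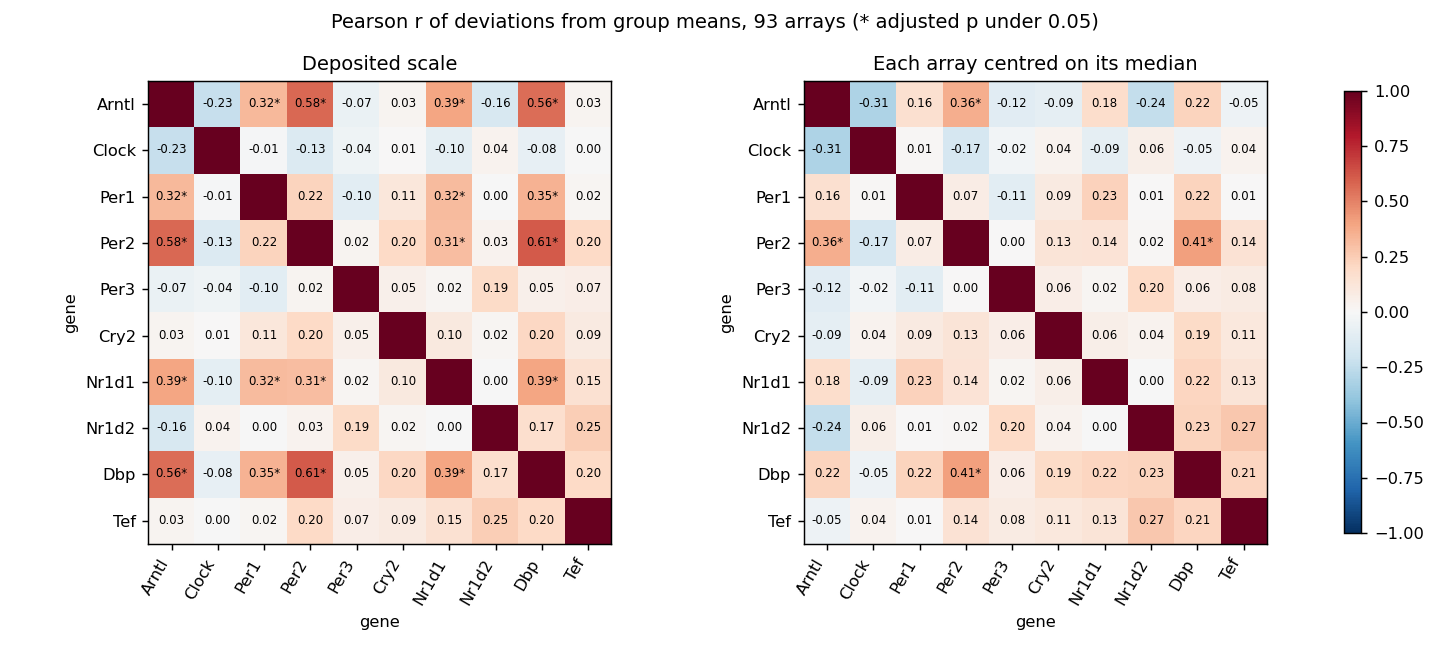
Pearson r between the 10 clock genes of the arrays' deviations from their group means, 93 arrays, on the deposited scale (left) and with each array centred on its median (right), with * for an adjusted p under 0.05 over 45 pairs. Of the 9 pairs that pass on the left, Per2 with Dbp (0.41) and Per2 with Arntl (0.36) pass on the right.

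These correlations moved with the arrays' general level. Arntl followed that level with r = 0.84 and rho = 0.78, Per2 with r = 0.68 and rho = 0.63, and Dbp with r = 0.67 and rho = 0.57 (permutation test over 70 relations of the members with the level and 6 tissue scores, adjusted p = 0.00014 each), and without the 2 farthest arrays r was 0.82, 0.64 and 0.58. Most genes did so: the median r of Arntl with 5410 other genes never at the floor was 0.63, above its r with Per2 and with Dbp, which ranked 3286 and 3437 of 5412 genes. For Dbp the median r was 0.50, below its r with Per2 and with Arntl, which ranked 1214 and 1914. With each array centred on its median, Per2 ranked 764 for Dbp (r = 0.41, against a median of 0.20). The genes most like Arntl were Aig1 (r = 0.87), Ralb, Pigc, Cd164 and Dhps, and those most like Dbp were Cacna2d1 (r = 0.84), Secisbp2l, Epb41l1, Get1 and Pi4ka, none of them a member.

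With each array centred on the median of all genes, 2 of the 45 pairs passed, Per2 with Dbp (r = 0.41, rho = 0.51, adjusted p = 0.014) and Per2 with Arntl (r = 0.36, adjusted p = 0.0412). With each array centred on its general level, 3 other pairs passed by r. They were Dbp with Tef (r = 0.37, rho = 0.36, adjusted p = 0.0438), with Nr1d2 (r = 0.34, rho = 0.29) and with Cry2 (r = 0.33, rho = 0.30). By rho the pair with Tef passed (permutation test, adjusted p = 0.037), and those with Nr1d2 and Cry2 did not (adjusted p = 0.0784 each). Subtracting the same level from both genes of a pair can itself add to their r. On that scale Per2 with Dbp had r = 0.19 and Arntl with Dbp r = -0.01. No pair passed on all 3 scales. With quantile normalization Per2 with Dbp passed as well (r = 0.38; permutation test, adjusted p = 0.0142). Among the scalings this pair thus missed the threshold only with the general-level centring, which was chosen after seeing the data. Which members varied together from rat to rat therefore depended on the scale of the arrays, and no pair can be given as correlated independently of it.

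**Figure D5:**
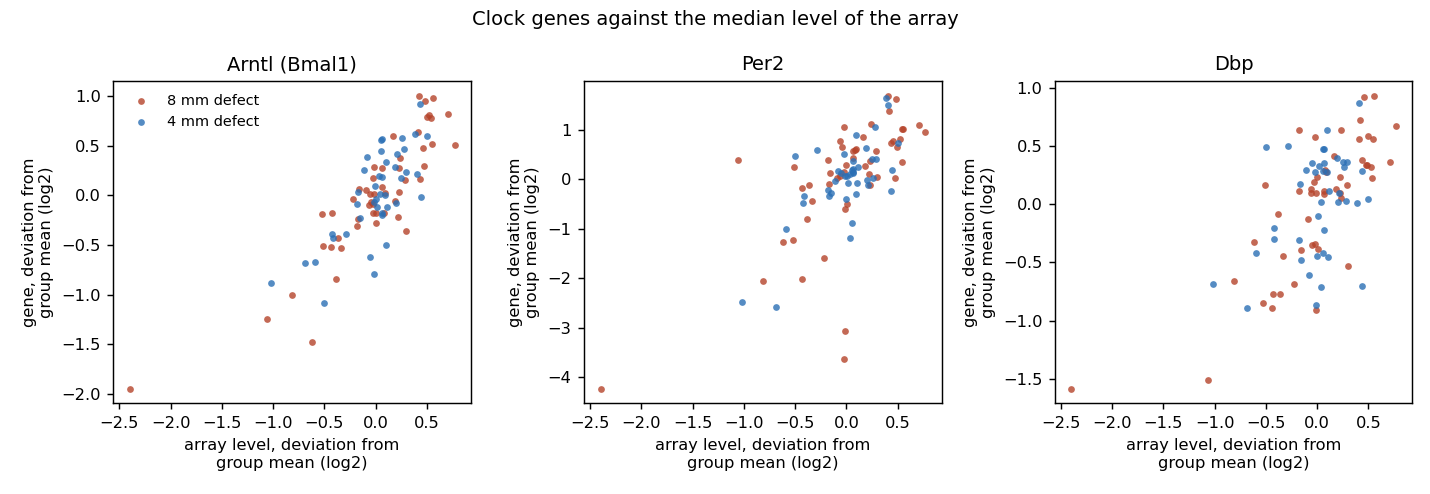
Deviation of the log2 value of Arntl, Per2 and Dbp from its group mean against the deviation of the array's general level (median log2 value of 5413 genes never at the floor), 1 point per array, 93 arrays. All 3 genes rise with the general level, with r of 0.84 for Arntl, 0.68 for Per2 and 0.67 for Dbp.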

How the data were processed

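Healing tissue of 93 rats was measured on 1-colour arrays (Cy3, per the labels' protocols), and signal over background cannot be given. The deposited table holds linear ratios, each probe relative to its own typical level, with no value under 0.01; the method of feature extraction, and any scaling between arrays, is not given in the sources used here. The design had assumed log values; log2 of the deposited ratio was taken, with no pseudocount. Groups came from the sample titles. Of 41090 probes 20932 had 1 gene symbol, and 20158 were unnamed here. The probe with the largest interquartile range stood for a gene.

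A mean for each of the 14 groups was estimated per gene, over 15974 genes, with limma 3.58.1 (R 4.3.3; lmFit, eBayes), with two-sided tests, Benjamini-Hochberg adjustment over all genes and a threshold of 0.05. P-values measure the spread between rats within groups, pooled over all 14 groups into 1 estimate per gene. Group spreads were unequal, as for Per2 with an SD of 0.18 (4 mm day 7, n = 5) and 1.87 (8 mm day 21, n = 6). Correlations used 100000 permutations within groups (Python 3.11.15, numpy 2.4.6). The fit was tested on simulated data with normal errors, the same spread in all groups and no floor. That test does not cover values at the floor or groups of unequal spread.

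The 10 members and the related lists (other clock genes, clock outputs, genes raised by glucocorticoids) were chosen with earlier results of these data known. All members are named. Related genes are given as counts, with values for genes that passed against day 1 on day 21 or between sizes, and the genes most like a member are the 5 with the highest r. Alternatives were other scalings, floors, probe rules, weights, covariates and samples left out.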

Additional observations from a re-analysis of the deposited data

Results flagged for a closer look

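Of 100 groups of 4 to 10 arrays tested over the 10 genes, 24 held 1 array far from the rest, where chance flags about 1 in 20. Among the flags for a low value, 3 fell on an array with a general level below -0.7. The array of 8 mm day 1 rat 11, whose level was -1.50, was lowest in its group for Arntl (-2.53, next -1.20), Dbp (-1.60, next 0.00) and Per1 (-3.32, next -0.66).

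Values at the floor of -6.64 gave 14 more, 9 single low arrays and 5 arrays alone above the floor. The single low arrays were those of Clock in 4 mm day 3 rat 16 and 8 mm day 21 rat 13, of Cry2 in 4 mm day 21 rat 13, 8 mm day 14 rat 15 and 8 mm day 21 rat 11, of Nr1d1 in 4 mm day 14 rat 17, of Nr1d2 in 4 mm day 14 rat 16, of Per1 in 8 mm day 21 rat 10 and of Tef in 8 mm day 14 rat 15, each at -6.64. In the other direction Nr1d2 was above the floor on 8 mm day 1 rat 14 alone of its group (0.64), and so was Per3 on 4 mm day 10 rat 13 (-0.69), 4 mm day 21 rat 15 (2.42), 8 mm day 1 rat 12 (-0.10) and 8 mm day 10 rat 11 (3.30).

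The 7 other arrays were measured above the floor. Arntl was high in 4 mm day 7 rat 12 (1.25, next 0.65). Per2 was low in 8 mm day 1 rat 16 (-4.91), 8 mm day 14 rat 15 (-2.18) and 8 mm day 21 rat 15 (-5.98, next -2.44). Low values were also found for Cry2 in 4 mm day 7 rat 10 (-1.57), Nr1d2 in 8 mm day 7 rat 14 (-2.86) and Tef in 8 mm day 7 rat 14 (-2.21). The array of 8 mm day 14 rat 15 was lowest in its group for Cry2, Per2 and Tef, and also for Nr1d1 (-2.03), a value that was not flagged.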

How the results depend on the processing

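No log2 difference that passed the threshold, as reported or under an alternative, changed its direction; some that passed under neither did. With arrays centred on their general level, 9 correlations that had passed turned negative: Arntl with Dbp (-0.0089), the general level with Per1 (-0.13), Dbp (-0.24) and Nr1d1 (-0.068), the cell cycle score with Arntl (-0.017), Dbp (-0.32) and Nr1d1 (-0.014), and the wound matrix score with Dbp (-0.26) and Nr1d1 (-0.0083). Cry2 with the general level, near 0 on the deposited scale, passed there with -0.31. On that scale the level was subtracted from each gene, while the level and the tissue scores were left as they were. A lower r of a gene with the level was thus built in, and these relations with the level are not results about the genes. The Arntl calls on days 5, 7, 10, 14 and 21 and the Per2 call on day 5 were kept in all 12 alternative settings and with each array of a group of up to 6 left out. The number of members called against day 1 moved by more than 1.5 times as follows, and smaller moves were 3 in place of 2 calls, in 1 setting on day 5, 4 on day 7 (Clock), 3 on day 14 and 5 on day 21. On day 3 (1 call) it was 2 with genes never at the floor only or with array weights, and 0 with the rat number as a replicate block, without the arrays of low level or with only the groups compared. On day 5 (2 calls) it was 4 with muscle and brain covariates and 6 with only the groups compared. On day 10 (1 call) it was 3 with quantile normalization and 2 with either centring, genes never at the floor only, array weights or without the arrays of low level. On day 14 (2 calls) it was 5 with arrays centred on their general level. On day 21 (2 calls) it was 1 with genes never at the floor only, where Tef was not tested, or with only the groups compared. Between sizes, the day 14 count (1) was 0 with quantile normalization, genes never at the floor only (Nr1d1 was not tested), ratios raised to 0.25, array weights, the replicate block, without the arrays of high brain score or with only the groups compared. The day 21 count (1) was 0 with quantile normalization, muscle and brain covariates, without the arrays of high brain score or with only the groups compared. Over days, the count within 4 mm defects (3) was 5 with array weights or without the arrays of high brain score, and within 8 mm defects (4) it was 2 with quantile normalization or genes never at the floor only. Correlated pairs (9) were 3 with quantile normalization, 2 with arrays centred on their median, 3 with arrays centred on their general level and 3 without the arrays of low level, and relations with level and tissue scores (15) were 5, 8, 4 and 6 under these. With 1 array left out the counts ranged over 0 to 1 (day 3), 2 to 3 (day 5), 1 to 3 (day 7), 1 to 2 (days 10 and 14), 2 to 3 (day 21), 0 to 1 between sizes on days 14 and 21, 2 to 3 over days in 4 mm and 3 to 5 in 8 mm defects, and 0 to 0 elsewhere. Rat numbers do not pair the arrays: of 34 same-numbered pairs of a day 3 had an r over 0.1, and the block took the Arntl day 3 difference to 0.78 (adjusted p = 0.105) and that of Nr1d1 on day 14 to 2.48 (adjusted p = 0.0804). The causes were not tested. The centring on the general level, the setting without arrays of high brain score and leaving out arrays from groups of 6 were chosen after seeing the data.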
